A study of Mus musculus with 14 samples.

Results

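The untreated H3K4me3 list of mouse embryonic stem cells held 52912 peaks, of which 10003 (18.9%) were distal and intergenic. A distal intergenic peak was one shorter than 5000 bp, with 50 or more tags, and more than 5 kb outside every protein-coding gene body in mm10. Of the 52912 peaks, 16711 lay beyond 5 kb of every gene, 16662 of these were also under 5000 bp, and 10003 of those had enough tags. The distal peaks were chosen on their untreated H3K4me3 tags and width, so these values describe them and are not a result. Together they held 7.995% of the tags that lay in untreated H3K4me3 peaks.

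The study profiled binding of the methyltransferase Mll1 and the 3 methylation states of lysine 4 on histone H3 (H3K4me1, H3K4me2 and H3K4me3) by chromatin immunoprecipitation and sequencing (ChIP-seq). Cells were given MM-401, a small molecule that blocks the contact between Mll1 and its partner Wdr5, at 100 µM, or 4-hydroxytamoxifen (4-OHT) at 5 µM, each for 9 days over 3 passages, or were left untreated. All groups were blastocyst-derived cells of strain C57BL/6J that carried floxed Mll1 alleles and an inducible Cre (labelled Mll1fl/fl; Cre-ER TM), grown without feeders on Matrigel with LIF, 5% serum and 15% serum replacement (KSR). The untreated cells thus carried the floxed alleles and Cre-ER too, 4-OHT activates that Cre to delete Mll1, and the labels do not give the number of clones. Each of the 9 histone mark groups and the untreated Mll1 group was 1 library with a deposited peak list, so no difference between treatments could be tested against replicate spread. All intervals below are exact 95% intervals that cover counting error only.

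H3K4me3 marks the start sites of active and poised genes, while H3K4me1 without much H3K4me3 is typical of enhancers. H3K4me2 occurs at both. Away from protein-coding genes, H3K4me3 is found at promoters of non-coding genes, at tRNA genes transcribed by RNA polymerase III, and at strongly active enhancers. Mll1 (Kmt2a) is 1 of several enzymes that methylate H3K4. In embryonic stem cells the related Set1 and Mll2 complexes are known to place much of the H3K4me3 at promoters, and Mll3 and Mll4 much of the H3K4me1 at enhancers.

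The sequences of 6 start sites at distal peaks are shown because H3K4me3 there took the extremes of the patterns described below. Snhg5 and Dancr had some of the strongest distal peaks, Platr3, Platr6 and Eprn were higher after 4-OHT, and Meg3 was higher after both agents. Each line gives RefSeq sequence of build GRCm38.p6 from 250 bases before to 50 bases after the annotated start, 5′ to 3′ on the strand of the gene. Capitals mark the motifs searched on both strands, which were the GC box GGGCGG, the TATA box TATAAA and the octamer ATGCAAAT, and no window shown held the octamer.
Snhg5, chr9:88522848-88523147, minus strand: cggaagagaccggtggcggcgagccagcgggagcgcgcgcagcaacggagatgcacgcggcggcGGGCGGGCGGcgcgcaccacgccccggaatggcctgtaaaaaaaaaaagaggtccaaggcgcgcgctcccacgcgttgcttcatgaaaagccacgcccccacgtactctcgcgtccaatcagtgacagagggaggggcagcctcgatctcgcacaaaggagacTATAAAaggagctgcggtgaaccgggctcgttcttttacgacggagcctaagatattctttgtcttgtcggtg
Dancr, chr5:74092810-74093109, plus strand: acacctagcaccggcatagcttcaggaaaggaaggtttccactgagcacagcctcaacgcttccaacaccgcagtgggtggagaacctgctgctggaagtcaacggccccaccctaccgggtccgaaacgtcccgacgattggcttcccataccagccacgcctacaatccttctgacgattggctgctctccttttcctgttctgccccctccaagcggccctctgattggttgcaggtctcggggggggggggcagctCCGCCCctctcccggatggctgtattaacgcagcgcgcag
Platr3, chr2:135646273-135646572, plus strand: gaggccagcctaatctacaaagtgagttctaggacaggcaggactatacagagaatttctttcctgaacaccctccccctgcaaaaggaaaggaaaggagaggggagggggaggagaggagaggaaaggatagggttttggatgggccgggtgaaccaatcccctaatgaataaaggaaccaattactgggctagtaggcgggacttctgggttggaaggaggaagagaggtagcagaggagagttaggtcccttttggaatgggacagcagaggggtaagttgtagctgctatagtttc
Platr6, chr10:21847563-21847862, minus strand: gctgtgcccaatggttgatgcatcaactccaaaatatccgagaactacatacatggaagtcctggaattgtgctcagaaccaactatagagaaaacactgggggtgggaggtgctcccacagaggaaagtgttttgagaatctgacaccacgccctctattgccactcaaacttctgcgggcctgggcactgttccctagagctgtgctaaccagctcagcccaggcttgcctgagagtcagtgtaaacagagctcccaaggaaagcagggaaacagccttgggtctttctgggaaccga
Eprn, chr13:73347335-73347634, minus strand: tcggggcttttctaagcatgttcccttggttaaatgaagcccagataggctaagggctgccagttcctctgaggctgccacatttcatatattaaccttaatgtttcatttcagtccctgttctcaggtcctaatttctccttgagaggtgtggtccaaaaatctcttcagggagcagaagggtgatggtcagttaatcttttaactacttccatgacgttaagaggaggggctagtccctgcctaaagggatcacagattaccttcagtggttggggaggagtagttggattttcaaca
Meg3, chr12:109540746-109541045, plus strand: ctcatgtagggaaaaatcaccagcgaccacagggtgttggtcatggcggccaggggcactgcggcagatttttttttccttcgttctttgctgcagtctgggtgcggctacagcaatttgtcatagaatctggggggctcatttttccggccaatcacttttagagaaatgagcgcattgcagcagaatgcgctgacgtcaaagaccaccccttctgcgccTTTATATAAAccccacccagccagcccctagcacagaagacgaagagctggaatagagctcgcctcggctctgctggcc

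Snhg5 is a host gene of small nucleolar RNAs, Dancr is a non-coding RNA known in human epidermis for holding back differentiation, and the Platr genes were named for non-coding transcripts linked to pluripotency in mouse embryonic stem cells. Eprn (ephemeron) is a mouse non-coding RNA tied to exit from the naive state, and Meg3 is an imprinted RNA made from the maternal chromosome. The Snhg5 window held 2 overlapping GC boxes and 1 TATA box, the Dancr window 1 GC box on the reverse strand, and the Meg3 window a TATA box on each strand, which overlapped. The 3 windows of Platr3, Platr6 and Eprn held none of the motifs. Their CpG ratios, the observed number of CpG dinucleotides over that computed from base content, were 0.1202 for Platr3, 0.1998 for Platr6 and 0.131 for Eprn, against 1.26 for Snhg5, 0.649 for Dancr and 0.602 for Meg3. A match describes letters in a window and does not show a bound site.

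Distal peaks also lay within 1 kb of 33 miRNA genes, of which 30 had a mature sequence in the RefSeq table. The mature arms below have a seed, bases 2 to 8 in capitals, that was carried by miRNA genes at separate distal peaks, and they are shown, 1 arm for each gene, so that the peaks can be grouped by seed. The 3p arms of Mir9-2 and Mir9-3 also shared a seed and are not printed.
miR-9-5p (Mir9-2), chr13:83738821-83738843, plus strand: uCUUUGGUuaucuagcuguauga
miR-9-5p (Mir9-3), chr7:79505279-79505301, plus strand: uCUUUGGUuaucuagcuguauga
miR-129-5p (Mir129-1), chr6:29022624-29022644, plus strand: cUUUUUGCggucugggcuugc
miR-129-5p (Mir129-2), chr2:94241419-94241439, minus strand: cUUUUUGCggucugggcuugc
miR-193a-3p (Mir193a), chr11:79712009-79712030, plus strand: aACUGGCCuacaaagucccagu
miR-193b-3p (Mir193b), chr16:13449570-13449591, plus strand: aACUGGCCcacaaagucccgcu
miR-125b-5p (Mir125b-1), chr9:41581940-41581961, plus strand: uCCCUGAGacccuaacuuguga
miR-351-5p (Mir351), chrX:53053315-53053338, minus strand: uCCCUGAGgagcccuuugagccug

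The distal peaks were small next to those at gene ends, which here are both the start and the end of a protein-coding gene body. Their tags ran from 50 to 2634 with a median of 99 and quartiles of 68 and 174, whereas peaks of the same size limits within 1 kb of a gene end numbered 13355 with a median of 838 tags. Peaks inside gene bodies away from the ends numbered 11999 with a median of 108 tags, close to the distal ones. Scaled to 1000000 filtered tags of the library (tags per M, the scale used for all levels here), the median distal peak stood at 3.92 and the highest at 104.2. The median width was 1265 bp and the median distance to the nearest protein-coding gene 32.7 kb. Within 20 kb of a gene lay 3532 distal peaks (35.3%), and 436 (4.36%) lay beyond 500 kb. At the edge of the tag limit, 866 distal peaks had 50 to 54 tags and 941 peaks outside the limit had 45 to 49. The shares without an overlapping MM-401 peak were 61.3% inside and 64.1% outside that edge, and the shares without a 4-OHT peak were 9.47% inside and 11.8% outside. At the other limits, 356 distal peaks lay 5 to 6 kb from a gene and 376 peaks of the same size limits lay 4 to 5 kb away, and 24 distal peaks were within 500 bp under the width limit while 16 others lay within 500 bp above it.

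Most distal peaks fell in none of the annotation classes counted here, which took genes within 1 kb or an overlapping body of a long non-coding RNA (lncRNA). In no class were 7044 of them (70.4%). Another 1424 lay in a lncRNA body, 793 at a lncRNA start and 566 at a pseudogene. The rest were 85 at a tRNA gene, 60 at another small RNA gene and 31 at a miRNA gene, each peak being counted in 1 class. Among the 523 peaks with 500 or more tags the order differed, with 130 (24.9%) within 1 kb of a lncRNA start and 60 (11.5%) within 1 kb of a tRNA gene. The 85 tRNA peaks had a median of 731 tags and ran from 53 to 2393. Of these, 39 sat on chromosome 13 between positions 21157755 and 23522684, the stretch that also holds a cluster of histone genes.

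Promoter sequence at distal lncRNA starts differed with the presence of a peak. The 990 annotated lncRNA starts at distal peaks had a median GC content of 51.7% and a CpG ratio of 0.358, and 25.8% held a GC box. The 5409 lncRNA starts that lay as far from genes but at no untreated H3K4me3 peak had a GC content of 46.0% and a CpG ratio of 0.183, and 4.53% held a GC box. Among all 32851 promoters in the table, 35.7% held a GC box, 1.74% the octamer and 13.6% the TATA box. The octamer was in 2.73% of starts at distal peaks and in 2.20% of starts without a peak, and the TATA box in 12.9% and 18.8%. Many of these windows belong to transcripts of the same gene and share sequence.

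Before the comparisons, the libraries were checked against their labels. Filtered depth ran from 12.9 M to 61.8 M tags over the 9 mark libraries, and for H3K4me3 it was 12.9 M in MM-401, 26.4 M in 4-OHT and 25.3 M in untreated cells. The MM-401 libraries also differed from the others in tag length (57 to 60 bp against 50 to 51 bp) and in the fragment length MACS used (208 to 293 bp against 179 to 197 bp), so the inhibitor and these features of the libraries cannot be told apart. Embryonic stem cell markers carried H3K4me3 at 7 of 8 gene ends in each group, Esrrb being the one without. Medians over all 8, with 0 for Esrrb, were 152.1 tags per M in MM-401, 147.9 in 4-OHT and 104.9 in untreated cells. Of 6 fibroblast markers, 4 had peaks, and Dcn and Postn had none. Medians over all 6, with 0 for those without a peak, were 9.83 in MM-401, 14.1 in 4-OHT and 13.7 in untreated cells. Alb, Ttr, Cd3g and Cd2, markers of liver and T cells, had none, and Apoa1 and Cd3e had peaks of at most 19.3 tags per M. The lists hold no measure of Mll1 protein after either agent, so loss of Mll1 after 4-OHT was not checked here.

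MM-401 libraries lacked H3K4me3 peaks at more than 1 in 4 distal sites, and 4-OHT libraries at few. Of the 10003 distal peaks, 2809 (28.1%, interval 27.2 to 29.0%) had no overlapping peak in MM-401 and 162 (1.62%, interval 1.38 to 1.89%) had none in 4-OHT. Over all untreated H3K4me3 peaks the shares were 38.2% in MM-401 and 8.19% in 4-OHT, and over all 36982 peaks of the same size limits 22.2% and 0.949%. The share in MM-401 was 5.23% at gene ends, 35.0% in gene bodies and 30.3% at intergenic peaks within 5 kb, and in 4-OHT it was 0.1198% at gene ends and 1.28% in gene bodies. Both agents were set against the same untreated library, so the 153 sites without a peak in both are a count and not 2 independent observations. The same count was 7.94% of all peaks and 0.909% of peaks of the same size limits. In these bulk samples, fewer marked cells and less mark per cell cannot be told apart.

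**Figure D1:**
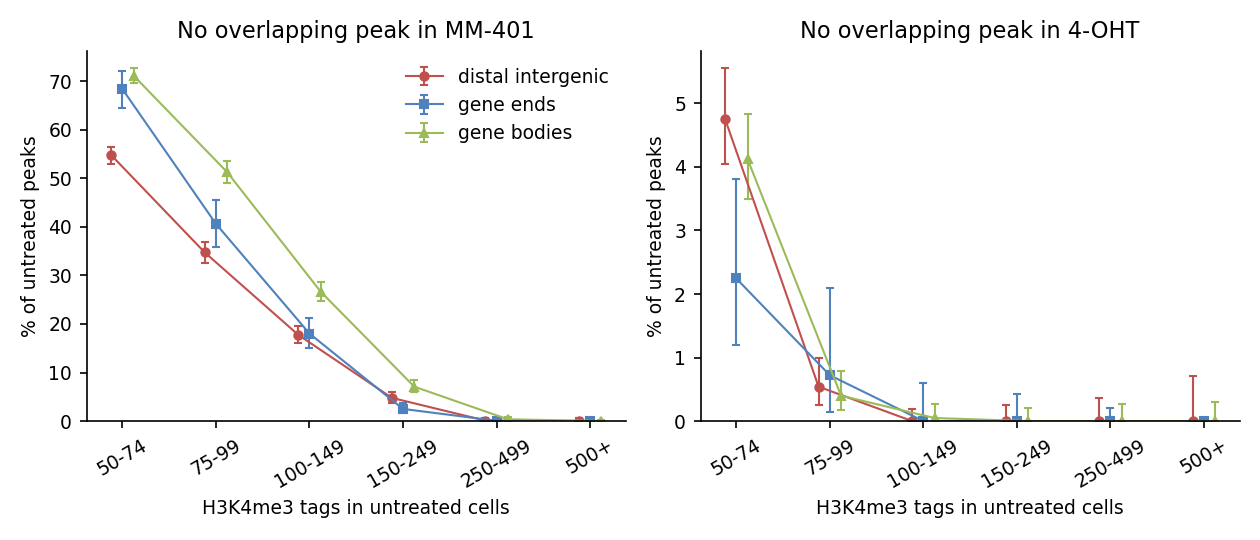
Share of untreated H3K4me3 peaks (%, vertical axes) with no overlapping H3K4me3 peak in MM-401 (left) and 4-OHT (right), by the tags of the peak in untreated cells (horizontal axes), for distal intergenic peaks, gene ends and gene bodies of the same size limits. Bars are exact 95% intervals; in MM-401 the distal share ran from 54.8% at 50 to 74 tags to 0% at 500 tags or more.

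The absence of a peak followed the size of the untreated peak. In MM-401 the share of distal peaks without one was 54.8% at 50 to 74 tags, 34.7% at 75 to 99, 17.8% from 100, 4.78% from 150, 0.0972% from 250 and 0% from 500 tags upward, each class ending below the next. In gene bodies the shares over the same classes were 71.2%, 51.3%, 26.6%, 7.09%, 0.372% and 0%, above the distal ones in every class below 500 tags. At gene ends they were 68.4%, 40.6%, 18.0%, 2.50%, 0.0579% and 0%. The plot of absent peaks by tag class shows the 3 curves, and the intervals of distal and gene end peaks overlapped in every class from 75 tags upward. In 4-OHT every absent distal peak had under 100 untreated tags, the highest being 95. With the untreated list shortened to its 32191 peaks of highest MACS score, the number in the whole MM-401 list, 15.1% of the 7758 distal peaks left had no MM-401 peak. The lower depth of the MM-401 library moved with these shares and its part in them was not tested further.

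Where a peak was present in both lists, H3K4me3 at distal sites had a median log2 ratio of treated over untreated tags per M of -0.25 in MM-401 (quartiles -0.65 and 0.13) over 7194 peaks, and of -0.09 in 4-OHT over 9841 peaks. The median over all untreated peaks of the same size limits was -0.07 in MM-401 and -0.02 in 4-OHT. It was 0.11 at gene ends and -0.34 in gene bodies in MM-401. Width had a median log2 ratio of 0.08 in MM-401 and 0.00 in 4-OHT, so that tags per kb of peak had medians of -0.37 in MM-401 and -0.09 in 4-OHT. A level at least 2-fold lower was found at 697 distal peaks in MM-401 (9.69%, against 7.29% of peaks of the same size limits) and 196 in 4-OHT (1.99%, against 1.17%). A level at least 2-fold higher was found at 152 in MM-401 (2.11%, against 2.05%) and 395 in 4-OHT (4.01%, against 5.25%). Shares of higher peaks at distal sites were thus near or below the background. A ratio exists only where both lists had a peak, so small peaks that fell below the calling limit of the treated list do not enter it.

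Most distal peaks matched a single peak of the treated lists. Of those with a peak, 95.8% in MM-401 and 96.8% in 4-OHT matched 1 treated peak that overlapped no other untreated peak. Only 49 (0.681%, against 1.47% of peaks of the same size limits) lay in an MM-401 peak of 5000 bp or wider, and 154 (1.57%, against 3.88%) in such a 4-OHT peak. One of these, at Mir182, is described below.

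Distal sites differed from gene ends in the other methylation states. Among the distal peaks, 63.3% overlapped an H3K4me1 peak in MM-401, 80.2% in 4-OHT and 75.5% in untreated cells. At gene ends the shares were 94.1% in MM-401, 99.02% in 4-OHT and 98.2% in untreated cells. In gene bodies they were 81.7% in MM-401, 92.6% in 4-OHT and 91.3% in untreated cells. H3K4me2 was present at 93.5% of distal peaks in MM-401, 99.4% in 4-OHT and 99.4% in untreated cells. In untreated cells 7547 distal peaks had both marks, 2395 (23.9%) had H3K4me2 without H3K4me1, 61 had neither, and 0 had H3K4me1 alone. H3K4me1 was therefore the mark that split the distal peaks.

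**Figure D2:**
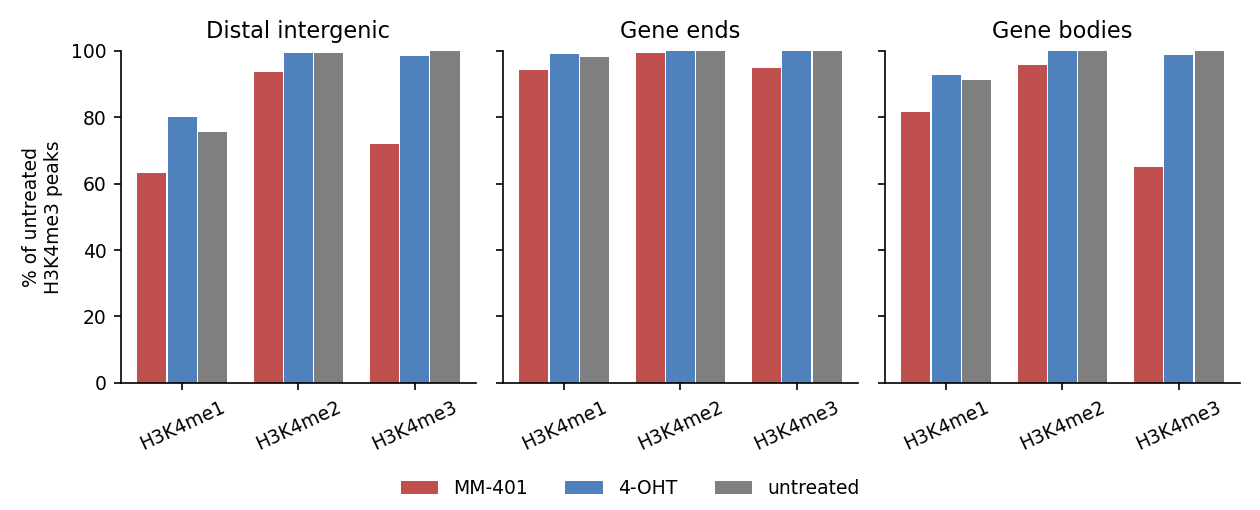
Share of untreated H3K4me3 peaks (%, vertical axis) overlapped by at least 1 bp of an H3K4me1, H3K4me2 or H3K4me3 peak in MM-401, 4-OHT and untreated cells, for distal intergenic peaks, gene ends and gene bodies of the same size limits. Untreated H3K4me3 is 100% because these peaks define the sets; H3K4me1 covered 63.3% of distal peaks in MM-401, 80.2% in 4-OHT and 75.5% in untreated cells.

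Of the other marks, H3K4me1 was missing in MM-401 from distal sites more often than from H3K4me3 peaks as a whole. Of the 7547 sites with untreated H3K4me1, 1288 (17.1%, against 13.2% of all H3K4me3 peaks and 9.92% of those of the same size limits) had no H3K4me1 peak in MM-401, and 132 (1.75%, against 1.83% and 1.25%) had none in 4-OHT. Of the 2456 sites without it, 71 (2.89%, against 3.97% and 5.83%) had an H3K4me1 peak in MM-401 and 602 (24.5%, against 24.4% and 30.9%) in 4-OHT, whose H3K4me1 library was the deepest at 61.8 M tags. Of the 9942 sites with untreated H3K4me2, 608 (6.12%, against 11.6% and 3.34%) lacked it in MM-401 and 32 (0.322%, against 0.779% and 0.136%) in 4-OHT. Where present in both, H3K4me1 had median log2 ratios of 0.06 in MM-401 and 0.04 in 4-OHT, and H3K4me2 0.03 and -0.07. The absent shares of H3K4me2, and of H3K4me1 in 4-OHT, thus lay between their 2 backgrounds, and that of H3K4me1 in MM-401 above both. The MM-401 H3K4me1 library had 22.2 M tags and 82150 peaks, against 36.9 M and 119739 in untreated cells. Untreated H3K4me1 had a median of 5.45 tags per M at distal sites, against 6.97 at H3K4me3 peaks of the same size limits. With the untreated H3K4me1 list shortened by MACS score to the MM-401 length, 64.5% of distal peaks overlapped it, against 63.3% in MM-401. The part of depth in the MM-401 H3K4me1 share was not tested further.

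Distal H3K4me3 in MM-401 differed between sites with and without H3K4me1 in untreated cells, a mark that played no part in choosing the peaks. Of the 7547 sites with H3K4me1, 33.8% (interval 32.7 to 34.9%) had no H3K4me3 peak in MM-401, against 10.6% (9.36 to 11.8%) of the 2456 without it. The intervals were far apart, and sites with H3K4me1 had more tags, with a median of 110 untreated tags against 79.5 at sites without it. Sites of similar tags still differed in enrichment and width, as given below. At 50 to 74 tags the shares were 73.6% with H3K4me1 and 18.6% without, at 75 to 99 tags 46.5% and 7.53%, from 100 to under 150 tags 22.5% and 2.59%, and from 150 to under 250 tags 5.57% and 0.446%. The median log2 ratio in MM-401, over sites with a peak in both lists, was -0.41 with H3K4me1 and 0.10 without. From 150 to under 250 tags it was -0.59 with H3K4me1 and 0.11 without.

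**Figure D3:**
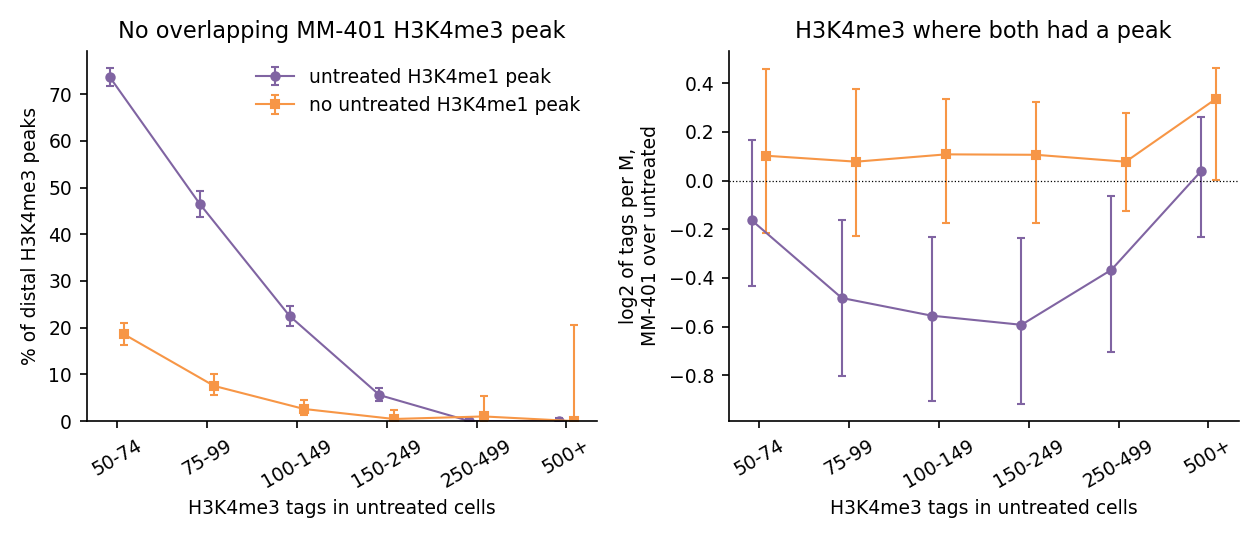
Distal intergenic H3K4me3 peaks with and without an H3K4me1 peak in untreated cells, by their untreated H3K4me3 tags (horizontal axes). Left, share (%) with no overlapping MM-401 H3K4me3 peak with exact 95% intervals; right, median and quartiles of the log2 ratio of MM-401 over untreated tags per M, which lay between -0.59 and 0.04 with H3K4me1 and between 0.08 and 0.33 without it.

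Sites with and without H3K4me1 differed in other measures too. Sites with H3K4me1 had a median width of 1367 bp and a MACS fold enrichment, the authors' own value, of 16.3, against 992 bp and 22.7 at sites without it. At 50 to 74 tags the median fold enrichment was 9.92 with H3K4me1 and 18.0 without, and the width 1100 and 869 bp. From 150 to under 250 tags the fold enrichment was 23.7 with H3K4me1 and 40.0 without. Untreated H3K4me2 had a median of 7.74 tags per M with H3K4me1 and 2.20 without. H3K4me2 itself followed the same split in MM-401, with a median log2 ratio of -0.04 with H3K4me1 and 0.29 without. Tags per kb of H3K4me3 peak were lower in MM-401 in both sets, with median log2 ratios of -0.44 with H3K4me1 and -0.16 without, and the median log2 ratio of width was 0.03 with H3K4me1 and 0.22 without. In 4-OHT, 1.99% of sites with H3K4me1 and 0.489% of sites without it had no H3K4me3 peak, and the median log2 ratios were -0.08 and -0.13. The part of fold enrichment, of peak shape and of the MM-401 library's fragment length in this split was not tested.

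In gene bodies the 2 shares were closer, and at gene ends their order was the other way round. In gene bodies 36.0% of 10957 peaks with H3K4me1 and 24.6% of 1042 without it had no MM-401 peak. Median untreated tags there were 114 with H3K4me1 and 76 without. The median log2 ratio in MM-401 was split much as at distal sites, with -0.38 with H3K4me1 and 0.005 without. At intergenic peaks within 5 kb it was -0.35 and 0.02, and at gene ends 0.11 and 0.08. At gene ends the shares were 5.07% of 13119 with H3K4me1 and 14.4% of 236 without, with median untreated tags of 856 with H3K4me1 and 159 without.

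Distance to genes and the X chromosome moved with H3K4me1. Sites without H3K4me1 made up 452 of 3532 peaks within 20 kb of a gene and 370 of 436 beyond 500 kb. The share of all distal peaks without an MM-401 peak was 30.7% within 20 kb, 31.5% from 20 to 50 kb, 30.5% from 50 to 100 kb, 21.5% from 100 to 500 kb and 6.19% beyond that. Among sites with H3K4me1 it was 32.6%, 34.4%, 36.1%, 34.3% and 19.7% over those distances, and among sites without it 17.7%, 16.3%, 11.4%, 6.58% and 3.78%. Sites beyond 500 kb were thus mostly sites without H3K4me1, but the share also fell with distance among sites without it. Among sites with H3K4me1 it was lower only in the farthest bin, which held 66 of them. On X, 10.3% of 271 distal peaks had no MM-401 peak, against a range of 23.9% (chromosome 3) to 34.5% (chromosome 19) over the autosomes. Among sites with H3K4me1 the X share was 16.1% of 124 (interval 10.1 to 23.8%), against 34.1% on autosomes (33.0 to 35.2%). Among sites without it the X share was 5.44% of 147 (2.38 to 10.4%), against 10.8% (9.56 to 12.1%), and these intervals overlapped. X sites with H3K4me1 had a median of 121 tags and a fold enrichment of 22.7, against 109 and 16.2 on autosomes. Without H3K4me1 the values were 77 and 20.9 on X, against 80 and 23.1.

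Transfer RNA genes were the distal class with the lowest share of missing peaks in MM-401. Of the 85 peaks at tRNA genes, 2 had no MM-401 peak (2.35%, interval 0.286 to 8.24%) and 0 had no 4-OHT peak, and these were also large peaks, of which 60 had 500 or more tags. The median log2 ratio was 0.14 in MM-401, with 59 of 83 higher, and -0.01 in 4-OHT, with 40 of 85 higher, whereas over all distal peaks 2370 of 7194 (32.9%) were higher in MM-401 and 3850 of 9841 (39.1%) in 4-OHT. Over all peaks of the same size limits 44.8% were higher in MM-401 and 46.8% in 4-OHT. The distal peaks with 500 or more tags of any class had a median of 0.04 in MM-401. The peak at chr13:23515765-23520410, next to the glycine tRNA gene n-TGgcc6 in the histone cluster, had 122.5 tags per M in MM-401, 96.5 in 4-OHT and 94.7 in untreated cells. The peak with the most tags of all, chr13:65239388-65243777, lay 33.45 kb from Zfp369, a zinc finger gene, and had 111.3 tags per M in MM-401, 104.8 in 4-OHT and 104.2 in untreated cells. The peak next to n-TGgcc6 was thus higher in MM-401 than in the other libraries, while the one near Zfp369 differed little.

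Distal peaks at lncRNA starts differed with the CpG content of the promoter. Of the 812 distal peaks within 1 kb of a lncRNA start, 184 (22.7%) had no MM-401 peak and 7 (0.862%) no 4-OHT peak, with median log2 ratios of -0.31 and -0.06. Those whose promoter had a CpG ratio of 0.6 or more numbered 172, of which 5.81% (interval 2.82 to 10.4%) had no MM-401 peak. Those below 0.6 numbered 630, of which 26.8% (23.4 to 30.5%) had none. The sets differed in size as well, with a median of 385 untreated tags in the CpG-rich set and 136 in the other, so that the share with absent peaks and the CpG ratio were not separated from peak size here.

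Single lncRNA starts showed how far the libraries could differ. At Snhg5, H3K4me3 had 118.5 tags per M in MM-401 (interval 112.7 to 124.6), 101.7 in 4-OHT (97.9 to 105.6) and 94.8 in untreated cells (91.0 to 98.7). At Dancr the values were 98.6 in MM-401 (93.2 to 104.1), 93.1 in 4-OHT (89.4 to 96.8) and 71.8 in untreated cells (68.5 to 75.2). At both genes the treated libraries were above the untreated one. The difference was beyond counting error under both agents at Dancr and in MM-401 at Snhg5, where the 4-OHT and untreated intervals overlapped. Meg3 had 37.7 tags per M in MM-401 (34.4 to 41.2), 21.1 in 4-OHT (19.3 to 22.9) and 7.60 in untreated cells (6.56 to 8.75), the highest log2 ratio in MM-401 among one-to-one peaks with 100 or more tags (2.31). Its H3K4me2 followed, with 18.9 in MM-401, 11.3 in 4-OHT and 6.99 in untreated cells. Meg3 was thus marked more strongly in both treated libraries, while Rian and Mirg, downstream in the same imprinted region, were not: Mirg had 4.02 tags per M in MM-401, 5.26 in 4-OHT and 6.17 in untreated cells, and Rian had no MM-401 peak, 2.80 in 4-OHT and 3.404 in untreated cells.

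**Figure D4:**
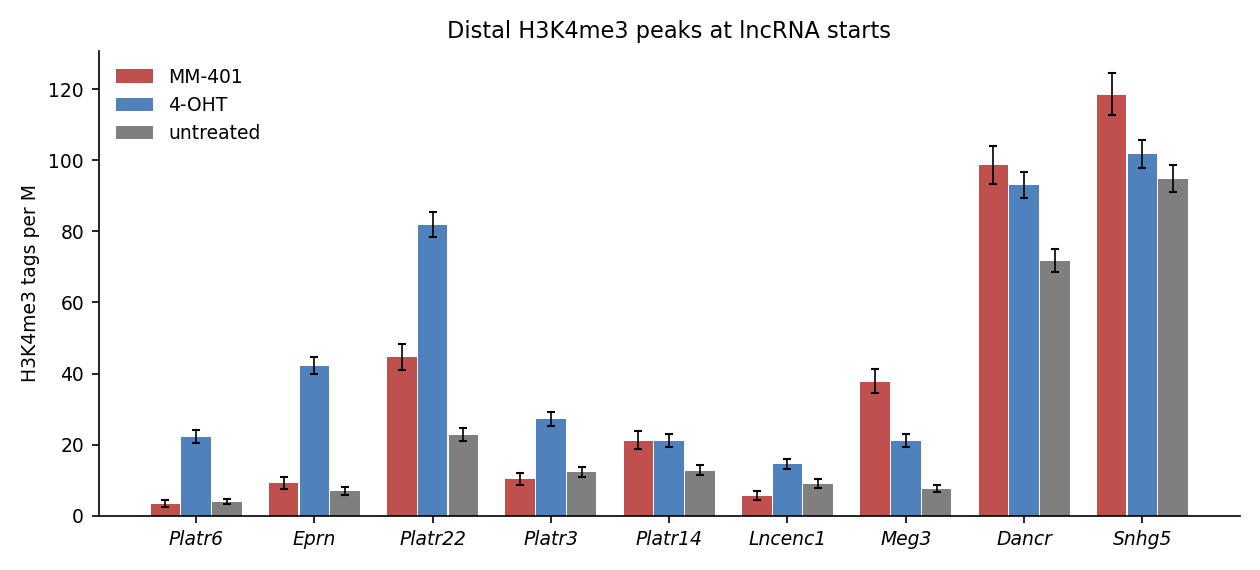
H3K4me3 (tags per M, vertical axis) at 9 distal peaks that lie at starts of lncRNAs named in the text, 1 library each for MM-401, 4-OHT and untreated cells. Bars are exact Poisson 95% intervals, counting error only; Platr6, Eprn, Platr22 and Platr3 were highest in 4-OHT, and Meg3 in MM-401.

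Several lncRNAs known from embryonic stem cells had more H3K4me3 in 4-OHT than in untreated cells. Among the listed non-coding genes, 8 were Platr genes or Lncenc1, a grouping made after their values were seen, and 5 of these had 8 distal peaks within 1 kb. All 8 peaks were higher in 4-OHT, 3 of them at least 2-fold, against 39.1% and 4.01% of all distal peaks, and 3 of the 7 with an MM-401 peak were higher in MM-401, against 32.9%. Eprn, named for its high ratio and not listed, had 9.21 tags per M in MM-401 (7.63 to 11.02), 42.2 in 4-OHT (39.7 to 44.7) and 6.89 in untreated cells (5.90 to 7.99), the highest log2 ratio in 4-OHT among one-to-one peaks with 100 or more tags (2.62). Platr6 had 3.25 in MM-401, 22.1 in 4-OHT and 3.88 in untreated cells, where its peak was 1875 bp wide in MM-401, 6166 bp in 4-OHT and 1664 bp in untreated cells. At these starts the 4-OHT level was several-fold above both others. Platr22 had 44.6 in MM-401, 81.8 in 4-OHT and 22.8 in untreated cells, and Platr3 had 10.2 in MM-401, 27.1 in 4-OHT and 12.2 in untreated cells. Lncenc1, named for its expression in embryonic stem cells, had 5.49 in MM-401, 14.5 in 4-OHT and 9.02 in untreated cells. At Platr14 both treated libraries stood at 21.1, against 12.7 in untreated cells. The windows of Platr3, Platr6 and Eprn printed above are those without a GC box and with few CpG dinucleotides.

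Over the whole list of non-coding genes, 4-OHT values were mostly higher too. Of 73 genes listed, 69 were annotated and 32 had a distal peak within 1 kb, 58 peaks in all, since long transcripts such as Sox2ot and Pvt1 held several. These 58 peaks were larger than distal peaks in general, with a median of 170 untreated tags against 99, and 56 had untreated H3K4me1. In MM-401 11 of 58 (18.97%, against 28.1% of all distal peaks) had no peak. Of the other 47, 20 (42.6%, against 32.9%) were higher in MM-401, 6 (12.8%, against 2.11%) at least 2-fold higher and 1 at least 2-fold lower, with a median log2 ratio of -0.22. In 4-OHT all 58 had a peak, 48 (82.8%, against 39.1%) were higher than in untreated cells, 10 (17.2%, against 4.01%) at least 2-fold higher and 1 at least 2-fold lower, with a median of 0.33, or 0.13 per kb of peak. Over all distal sites with untreated H3K4me1, 1.56% in MM-401 and 5.30% in 4-OHT were at least 2-fold higher. A treated peak that covers several untreated peaks gives its whole tags to each. This held at Pvt1 and Norad, described below, and at Tsix in 4-OHT. No count limited to one-to-one pairs was made for this list, and several peaks lie in 1 gene. The larger shares at least 2-fold higher in the list therefore rest in part on shared peaks. Next to Xist, the RNA that silences one X chromosome in females, Jpx had 7.97 tags per M in MM-401, 11.1 in 4-OHT and 8.47 in untreated cells, and the start of Ftx had 13.9 in MM-401, 18.4 in 4-OHT and 16.5 in untreated cells. Over Tsix, the antisense repressor of Xist, 1 peak of 9.39 tags per M in 4-OHT covered 2 untreated peaks of 2.53 and 1.98, of which MM-401 had a peak at the second alone (1.32). Terc, the RNA component of telomerase, had 24.8 in MM-401, 37.1 in 4-OHT and 25.3 in untreated cells.

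**Figure D5:**
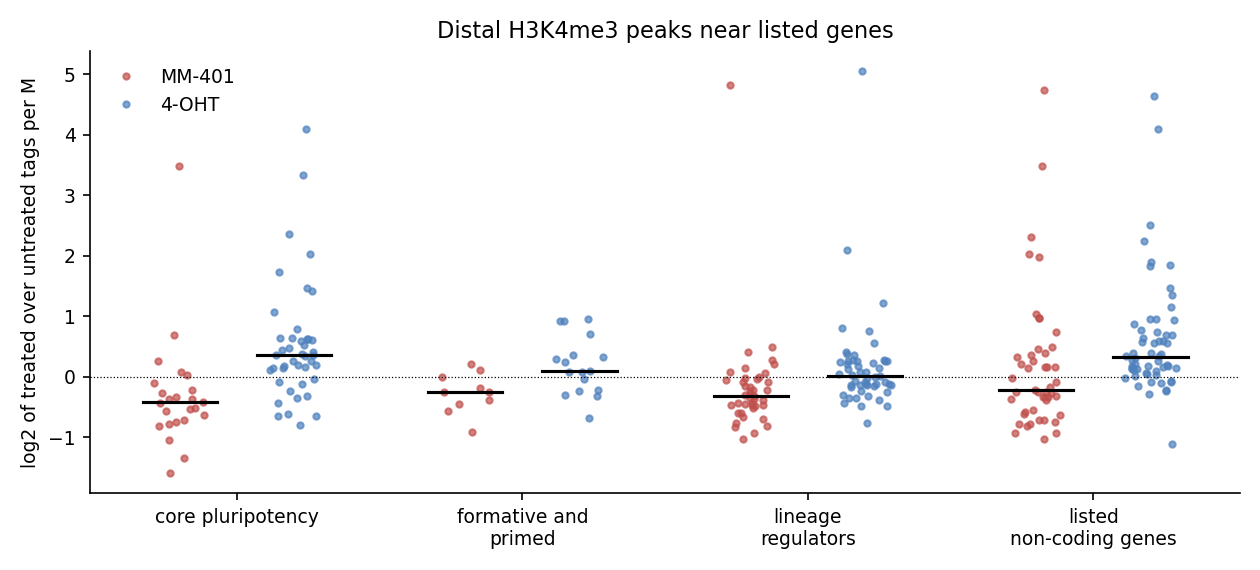
Log2 ratio of H3K4me3 tags per M at distal peaks near listed genes (vertical axis), MM-401 over untreated and 4-OHT over untreated, 1 point per peak present in both lists; black lines are medians. Medians near core pluripotency genes were -0.43 in MM-401 and 0.35 in 4-OHT, and some points share 1 wide treated peak.

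Distal peaks near core pluripotency genes were mostly higher in 4-OHT too. A peak was given to its nearest protein-coding gene within 100 kb, which does not show that it acts on that gene. For 24 listed genes this gave 43 peaks near 12 genes, all 43 with H3K4me1 in untreated cells. In MM-401 19 of 43 (44.2%) had no peak, against 33.8% of all distal sites with H3K4me1, but the listed peaks were smaller, with a median of 93 tags against 110, and at 75 to 99 tags the share over all sites with H3K4me1 was 46.5%. Of the other 24, 5 (20.8%, against 21.5% of sites with H3K4me1) were higher in MM-401, and the median log2 ratio was -0.43, against -0.41. The MM-401 values near these genes were thus close to those of distal sites with H3K4me1 in general. In 4-OHT all 43 had a peak, 32 (74.4%, against 41.4% of sites with H3K4me1) were higher than in untreated cells and 8 (18.6%, against 5.30%) at least 2-fold higher, with a median of 0.35 against -0.08, or 0.11 per kb. H3K4me2 in 4-OHT had a median log2 ratio of 0.33. Peaks near 1 gene are not independent, and those that share 1 wide treated peak, as near Klf4, each take its whole tags.

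Among single sites, 7 distal peaks lay nearest to Sox2, which sustains pluripotency, most of them inside Sox2ot. The peak 6.54 kb from Sox2 had 14.9 tags per M in MM-401, 21.3 in 4-OHT and 18.8 in untreated cells. At Tbx3, a naive-state factor, the peak 12.1 kb away had 4.80 in MM-401, 16.6 in 4-OHT and 7.92 in untreated cells. At Klf5, of the same factor family as Klf4, 4 of 5 peaks had no MM-401 peak, and the peak with the most tags had 3.87 in MM-401, 9.39 in 4-OHT and 11.7 in untreated cells, so it was lower under both agents. The site 5.72 kb from Dppa2, a chromatin regulator of early embryos, had no MM-401 peak, 9.84 in 4-OHT and 2.97 in untreated cells, and its H3K4me2 was 11.9 in MM-401, 75.9 in 4-OHT and 8.91 in untreated cells. The site 14.75 kb from Pou5f1, the core pluripotency factor Oct4, had no MM-401 peak, 3.94 in 4-OHT and 2.57 in untreated cells. Near Klf4, which holds the naive state with Klf2 and Klf5, the sites 48.7 and 45.4 kb away joined into 1 peak of 25.6 tags per M in 4-OHT. In MM-401 only the second had a peak (10.1), and in untreated cells they were separate, at 2.53 and 6.25. The large site 40.6 kb from Prdm14, a repressor of differentiation genes, had 41.8 in MM-401, 40.0 in 4-OHT and 35.1 in untreated cells.

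Near genes of the formative and primed state and near lineage regulators the 4-OHT values were closer to untreated ones. For 11 formative and primed genes, of which 10 were annotated, 17 peaks lay near 8 genes. In MM-401 7 of 17 (41.2%, against 28.1% of all distal peaks) had no peak and in 4-OHT 11 of 17 (64.7%, against 39.1%) were higher, with median log2 ratios of -0.25 in MM-401 and 0.10 in 4-OHT. Over all distal peaks the medians were -0.25 in MM-401 and -0.09 in 4-OHT. All 17 had untreated H3K4me1. Over all distal sites with H3K4me1, 33.8% had no MM-401 peak and 41.4% were higher in 4-OHT, with medians of -0.41 and -0.08. The distal peak 5.13 kb from Otx2, a factor of the formative epiblast, had 23.7 tags per M in MM-401, 28.9 in 4-OHT and 27.0 in untreated cells. For 30 lineage regulators, 53 peaks lay near 19 genes, of which 11 (20.8%, against 28.1%) had no MM-401 peak, 2 (3.77%, against 1.62%) had no 4-OHT peak and 26 of 51 (50.98%, against 39.1%) were higher in 4-OHT, with medians of -0.31 in MM-401 and 0.01 in 4-OHT. Large peaks among them were the one near Olig2, a neural factor, at the start of Gm41492 (75.2 in MM-401, 68.8 in 4-OHT and 56.9 in untreated cells) and the one at the start of Sox1ot (28.4 in MM-401, 27.3 in 4-OHT and 28.9 in untreated cells). Of the 53 peaks near lineage regulators, 50 had untreated H3K4me1, and the median over all 53 was 127 untreated tags. The differences between the lists were not tested.

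The 33 distal peaks within 1 kb of miRNA genes were mostly present in both treated libraries. In MM-401 6 (18.2%, against 28.1% of all distal peaks) had no peak and the median log2 ratio of the rest was -0.21, against -0.25. In 4-OHT 1 (3.03%, against 1.62%) had no peak, 20 of 32 (62.5%, against 39.1%) were higher, and the median was 0.05, against -0.09. The miRNA peaks were larger than most, with a median of 222 untreated tags. Peaks at genes with the same seed could differ in level. Mir9-3, one source of miR-9, which acts in neural progenitors, had 20.5 tags per M in MM-401, 20.8 in 4-OHT and 18.4 in untreated cells. Mir9-2, with the same mature sequence, had 2.71 in MM-401, 4.01 in 4-OHT and 4.67 in untreated cells. The 2 differed several-fold in every library, as did Mir129-2 (29.3 in MM-401, 36.2 in 4-OHT and 35.9 in untreated cells) and Mir129-1 (5.42 in MM-401, 9.01 in 4-OHT and 8.79 in untreated cells). Mir193a (49.4 in MM-401, 51.3 in 4-OHT and 47.0 in untreated cells) and Mir193b (36.9 in MM-401, 42.3 in 4-OHT and 36.1 in untreated cells) were both strong. Mir125b-1 (3.95 in MM-401, 7.57 in 4-OHT and 6.10 in untreated cells) and Mir351 (4.26 in MM-401, 5.57 in 4-OHT and 5.19 in untreated cells) were both weak. At Mir182 the untreated peak of 3642 bp had 11.4 tags per M and lay in a peak of 14550 bp with 198.5 in MM-401 and of 16646 bp with 212.4 in 4-OHT, which also covered neighbouring untreated peaks, so its ratio is no measure of the same stretch.

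The distal peaks at the extremes of each comparison are given here by their nearest gene. Of the peaks with no counterpart in MM-401, the one with the most tags was chr11:54139622-54140827, 7.95 kb from P4ha2, with 13.4 tags per M in 4-OHT and 12.1 in untreated cells. It carried the second highest Mll1 signal of any distal peak (287 tags) and no H3K4me1 peak. The next were at the start of Gm38761, with 7.99 in 4-OHT and 9.34 in untreated cells, and 143.4 kb from Cand1, with 5.38 in 4-OHT and 9.34 in untreated cells. The lowest ratio in MM-401 among one-to-one peaks was at the start of Gm42075, with 1.32 in MM-401, 11.9 in 4-OHT and 11.2 in untreated cells, and its H3K4me2 was 1.62 in MM-401, 6.42 in 4-OHT and 7.22 in untreated cells. The peak 57.95 kb from Cpsf6 followed, with 1.86 in MM-401, 9.31 in 4-OHT and 11.6 in untreated cells. The site near Cand1 was lower in 4-OHT as well, beyond counting error (interval 4.53 to 6.34 in 4-OHT and 8.19 to 10.6 in untreated cells), while at the other 4 sites the intervals of 4-OHT and untreated cells overlapped. In the other direction, the peak 18.7 kb from Mrpl42 had 27.8 in MM-401, 8.03 in 4-OHT and 9.89 in untreated cells, and its H3K4me2 was 55.0 in MM-401, 12.2 in 4-OHT and 12.5 in untreated cells. In 4-OHT, the peak 22.2 kb from Trmt9b had 14.3 in MM-401, 37.0 in 4-OHT and 6.89 in untreated cells, and the one 47.1 kb from Klf9 had 13.7 in MM-401, 34.5 in 4-OHT and 6.65 in untreated cells. Peaks without a counterpart in 4-OHT were small, the highest being 23.98 kb from Mlip at 3.76 tags per M in untreated cells.

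Few Mll1 peaks were called, and they overlapped a smaller share of distal peaks than of all H3K4me3 peaks. The Mll1 list held 4004 peaks of median width 164 bp, with 0.285% of the library's tags. MACS used a fragment length of 53 bp for it. An absent Mll1 peak here is not absent binding. In untreated cells 278 of the 10003 (2.78%, interval 2.47 to 3.12%) overlapped an Mll1 peak, against 3.56% of all H3K4me3 peaks and 4.02% of those of the same size limits. With a MACS score of at least 100 asked of every list the share was 0.0507%, so the shares given here rest almost wholly on Mll1 peaks of lower score. The share was 5.71% at gene ends and 3.06% in gene bodies. Signals were low, with a median of 11 Mll1 tags, and 22 of the 278 rested on peaks with a false discovery rate above 5%. By class it was 8.24% at tRNA genes (7 peaks), 3.53% at lncRNA starts (28) and 2.56% at sites in none of the annotation classes (180). Distal peaks with Mll1 had no H3K4me3 peak in MM-401 in 17.3% of cases (interval 13.01 to 22.2%), against 28.4% without Mll1, with untreated medians of 178 and 98 tags, and 0 of 278 lacked a peak in 4-OHT. The highest Mll1 signal, 317 tags, lay 60.4 kb from Axin2, where H3K4me3 had 32.3 tags per M in MM-401, 18.1 in 4-OHT and 18.9 in untreated cells.

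The rule looks only at sites marked in untreated cells. Applied to the 4-OHT list, a choice made after the data were seen, it gave 10136 distal peaks, of which 534 (5.27%) had no untreated peak and 30.3% no MM-401 peak. Applied to the MM-401 list it gave 3789 with a limit of 50 tags, of which 2 had no untreated peak, and 6923 with the limit scaled to depth, of which 36 (0.520%) had none. Distal MM-401 peaks above these limits thus almost all overlapped an untreated peak. The untreated library was deeper, with 25.3 M filtered tags against 12.9 M, and any untreated peak, from 15 tags upward, counted as a match. MM-401 peaks below the limits were not examined, so new sites among them would not show.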

How the data were processed

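The authors deposited 1 peak list for each of 10 ChIP libraries, with 4 inputs as controls. Per the file headers, MACS 1.4.2 called the peaks of each library on duplicate-free tags against 1 input. The headers give 1e-05 as the p limit, 2.7e+09 as genome size, 300 as band width and windows of 1000 and 10000 bp for local background. The submitters' processing notes name Bowtie2, SAMtools 1.5, MACS2 and build mm10. Each deposited list gives a raw tag count per peak, a score (10 times the negative log10 of the MACS p), a ratio (fold enrichment of the summit over local background) and a false discovery rate in percent. Width and summit offset in bp are per the file headers.

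Tag counts were divided by the filtered tags of the library and multiplied by 1000000. Peaks overlapped from 1 bp, and a treated level is the summed tags of all overlapping peaks. Distances were measured to 21883 protein-coding genes in RefSeq GRCm38.p6, and 1 gene known only from the promoter table was kept as a gene. Intervals are exact Clopper-Pearson (shares) or Poisson (tags) at 95%. With 1 library per group no test was made. Regions are named by a rule set with the design (most tags, absent from a treated list, highest and lowest one-to-one ratios at 100 tags or more, listed genes within 100 kb, listed non-coding genes within 1 kb, most Mll1 tags). All miRNA and tRNA peaks, the printed promoters and the split by H3K4me1 were added after values were seen. The members and gene lists were chosen with earlier results of these data known. Code was tested on simulated data and run with Python 3.11.15, numpy 2.4.6, pandas 2.3.3, scipy 1.17.1 and matplotlib 3.10.9.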

Additional observations from a re-analysis of the deposited data

How the results depend on the processing

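With at least 100 untreated tags, 4959 peaks were left. The share without a peak was 8.39% in MM-401 and 0% in 4-OHT, and 0 peaks lacked both. Median log2 ratios of H3K4me3 tags per M were -0.348 in MM-401 and -0.0742 in 4-OHT, and of width 0.0491 and 0.0133. H3K4me1 covered 74.9% in MM-401, 88.1% in 4-OHT and 83.8% in untreated cells, and H3K4me2 99.2%, 99.9% and 99.96%. H3K4me1 ratios were 0.0954 in MM-401 and 0.0649 in 4-OHT, H3K4me2 ratios 0.0754 and -0.0503, and Mll1 overlapped 4.26%. Beyond 20 kb, 6471 peaks were left, of which 26.7% had no MM-401 peak. H3K4me3 ratios were -0.18 in MM-401 and -0.10 in 4-OHT, and width ratios 0.103 and -0.00113, the last of opposite sign. H3K4me1 covered 56.2%, 74.3% and 69.0% in MM-401, 4-OHT and untreated cells, and H3K4me2 92.6%, 99.2% and 99.2%. H3K4me2 ratios were 0.0621 in MM-401 and -0.0818 in 4-OHT, and Mll1 overlapped 2.33%.

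With the longer list of each pair shortened to the number of peaks in the other by MACS score, the share without a peak was 15.1% in MM-401 and 2.48% in 4-OHT, and 613 peaks lacked both once the untreated and 4-OHT lists were shortened to the length of the MM-401 list. H3K4me1 then covered 63.3% in MM-401, 68.6% in 4-OHT and 64.5% in untreated cells, and H3K4me2 93.5%, 91.7% and 94.4%. With a score of at least 100 the shares were 42.3% and 5.48%, 531 peaks lacked both, H3K4me1 covered 51.0%, 73.6% and 68.4% in MM-401, 4-OHT and untreated cells, H3K4me2 82.6%, 98.0% and 97.9%, and Mll1 0.0507%. With one-to-one pairs, H3K4me3 ratios were -0.27 in MM-401 and -0.10 in 4-OHT and width ratios 0.0727 and -0.00145, again of opposite sign. In 4-OHT the H3K4me1 ratio was 0.00611 and the H3K4me2 ratio -0.085. Scaled to the tags in peaks, H3K4me3 ratios were -0.30 in MM-401 and -0.18 in 4-OHT, H3K4me1 ratios 0.18 and -0.0349 (opposite sign), and H3K4me2 ratios 0.013 and -0.20. Per kb of peak, the H3K4me3 ratio was -0.37 in MM-401, H3K4me1 ratios 0.16 in MM-401 and -0.0907 in 4-OHT (opposite sign), and the H3K4me2 ratio -0.057 in 4-OHT. The rule on the MM-401 list at 50 tags gave 3789 peaks. The causes of these shifts were not tested, beyond the smaller sets the limits leave. The direction of the H3K4me3 ratios was the same under every setting named here.

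No paired analysis was possible because each group was 1 library and the labels carry no replicate numbers. For the same reason no replicate was left out, and the difference between libraries has no replicate check. Lists of equal number were not run for Mll1, which has 1 list. Small peaks limit what the shallower MM-401 library can show: an absent peak there is not an absent mark.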

Other observations

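Pvt1, a lncRNA next to the oncogene Myc, held 5 distal peaks that are described here because the locus joined several of the patterns above. The untreated peak 46.55 kb from Myc had 98.6 tags per M in MM-401, 92.3 in 4-OHT and 47.9 in untreated cells, and its treated peaks also covered a second untreated peak of 3.68. The other 3 peaks, 96.76, 101.7 and 108.0 kb from Myc, had no MM-401 peak. In 4-OHT they had 5.94, 14.3 and 8.14 tags per M, against 3.25, 4.04 and 3.21 in untreated cells. H3K4me1 over the same stretch was 1 wide peak of 219.2 tags per M in 4-OHT.

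Values at further single sites are given here. The site 85.67 kb from Chd7, a chromatin remodeler, had H3K4me1 of 23.0 tags per M in MM-401, 10.9 in 4-OHT and 10.3 in untreated cells, the highest one-to-one H3K4me1 ratio in MM-401, and no H3K4me3 peak in either treated list. The site 109.0 kb from Slc1a3, a glutamate transporter gene, had the lowest, with H3K4me1 of 2.12 in MM-401, 8.10 in 4-OHT and 10.4 in untreated cells. Its H3K4me3 was 4.18 in MM-401, 9.09 in 4-OHT and 9.18 in untreated cells. Near Mir205, an epithelial miRNA, H3K4me3 had 13.4 tags per M in MM-401, 8.86 in 4-OHT and 3.404 in untreated cells. At H19, an imprinted RNA, it had 2.71 in MM-401, 5.68 in 4-OHT and 5.15 in untreated cells. At Norad, where 1 MM-401 peak of 16.5 tags per M covered both untreated peaks, those had 9.77 and 4.35 in 4-OHT and 8.43 and 4.20 in untreated cells.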
